A study of Mus musculus with 8 samples.

Results

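Ribosome biogenesis was examined through 40 genes whose products build the ribosome in the nucleolus and which are widely described as targets of Myc. The members were chosen by gene symbol, and all 40 were found among the 38115 genes of the deposited count tables. RNA was sequenced from 8 mouse tumors grown from Myc-CaP cells, a prostate cancer line, injected orthotopically into the anterior prostate of FVB males. The androgen sensitive (AS) line and its castrate resistant (CR) counterpart were placed in hosts that were intact or had been surgically castrated beforehand. The labels do not state the host for each tumor or the age of the mice, and each phenotype is represented by 1 cell line. There were 2 primary AS, 2 metastatic AS, 2 primary CR and 2 metastatic CR tumors, numbered 1 and 2 within each group by accession order (primary AS1, and so on). The labels call each metastasis matched without naming its primary tumor or the organ it came from, so the comparisons given here use no pairs.

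Ribosome production starts with transcription of ribosomal DNA by RNA polymerase I. The precursor is then modified by small nucleolar ribonucleoproteins (snoRNPs), cut, folded and assembled with ribosomal proteins into the small and large subunits. Myc raises the output of each of these stages, and a large nucleolus is a long-known feature of prostate cancer cells. Myc-CaP cells derive from a mouse that carries a human MYC transgene under an androgen-responsive promoter, so mouse Myc counts do not measure the transgene. The members were grouped by role into 8 genes of RNA polymerase I transcription, 7 snoRNP core proteins, 4 abundant nucleolar proteins, 10 small subunit factors and 11 large subunit factors.

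Myc binds the E-box CACGTG and, less tightly, the related CACGCG. Both hexamers were searched on both strands in RefSeq promoter windows of GRCm38.p6, from 250 bases before to 50 bases after an annotated start, which were found for 35 members. CACGTG, which reads the same on both strands, was present for 6 of the 35 members (17.1%) and for 8.91% of 17492 protein-coding genes with a window. CACGCG or its reverse complement CGCGTG was present for 16 of the 35 (45.7%) and for 13.7% of protein-coding genes. For neither hexamer were the protein-coding genes matched to the members in GC content of the window. Matches of the 2 motifs cannot share bases with each other, although CACGCG and its complement can, and a match describes letters and does not establish a bound site. All CACGTG matches in the members are shown, with the hexamer in capitals and the strand of the gene in use.
Nop2, chr6:125131793-125131858, plus strand, upstream of the start: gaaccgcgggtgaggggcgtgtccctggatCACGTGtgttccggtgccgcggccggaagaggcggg
Rrn3, chr16:13780454-13780519, plus strand, upstream: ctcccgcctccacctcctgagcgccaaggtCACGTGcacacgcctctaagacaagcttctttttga
Rrn3, chr16:13780621-13780686, plus strand, upstream: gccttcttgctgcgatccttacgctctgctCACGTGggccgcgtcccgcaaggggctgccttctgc
Mybbp1a, chr11:72441357-72441376, plus strand, after the start: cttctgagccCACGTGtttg
Wdr43, chr17:71616222-71616247, plus strand, after the start: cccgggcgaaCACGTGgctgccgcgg
Pes1, chr11:3963967-3963992, plus strand, after the start: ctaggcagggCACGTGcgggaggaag
Utp20, chr10:88826765-88826787, minus strand, after the start: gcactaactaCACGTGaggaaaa
Of these genes, Mybbp1a and Wdr43 passed the test between phenotypes described further on, and Nop2, Rrn3, Pes1 and Utp20 did not.

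Total counts were 61237285 to 91886163 in AS tumors, 76887592 in primary CR1 and 20905806 to 40586710 in the other CR tumors. The part of depth in the difference between phenotypes was not tested. The lowest count of any member in any tumor was 147, for Polr1e. Ribosomal RNA genes and Lars2 took 11.7% to 14.8% of counts in AS tumors and 2.71%, 32.9%, 32.1% and 20.5% in primary CR1, primary CR2, metastatic CR1 and metastatic CR2, and their part in the values of single tumors was not tested. No pair of tumors had identical counts. The libraries also split in a way the labels do not describe: 16 genes, 11 of them snoRNA genes, had at least 5 counts in every tumor numbered 1 and none in any tumor numbered 2, against at most 5 genes for any other division into 4 and 4. Each of these library sets holds 1 tumor of every group, and values within each set are given with the results. The library codes in the labels run in separate series for AS and CR tumors, so a difference in handling between those series and the phenotype cannot be told apart. Among the prostate luminal markers, Krt8 (2159 to 42146 normalized counts) was abundant and Foxa1 and Hoxb13 were present, whereas Epcam, Cdh1 and Krt18 did not exceed 36 normalized counts in any tumor. In bulk tumor RNA, fewer cells of a type and less RNA per cell cannot be told apart.

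Counts were scaled to a common library size and are called normalized counts. The nucleolar chaperone Npm1 was the most abundant member by far, also per kilobase of merged exons, at a mean of 37107 normalized counts per kilobase over the 8 tumors. It was followed on that scale by Nop10 (5281), Ncl (4353) and Nhp2 (3234), while Tcof1 (116), Wdr12 (133) and Fbl (146) were lowest. The ranking depends on the length used. Merged exons of Fbl hold 4209 bases and its longest coding transcript 1197, whereas both are 1109 for Nop10. Over 30% of the longest coding transcript of Ddx18 (87.8%), Fbl (57.6%) and Nop56 (39.0%) is near-identical to transcripts of other genes. Reads that fit several places were not kept, so the levels of these genes are uncertain. The search did not exclude genes at the same place, and Idh3b overlaps exons of Nop56 on the other strand. Bases shared only through such an overlap do not make a read fit several places. The highest tumor exceeded the lowest by a median of 2.15-fold over the members, from 1.27-fold for Ubtf, an activator of RNA polymerase I, to 4.39-fold for Dkc1, the pseudouridine synthase of H/ACA snoRNPs.

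Taken as a sum, the members were a larger share of protein-coding counts in CR than in AS tumors. They took 0.574% and 0.578% of protein-coding counts in the primary AS tumors and 0.739% and 0.621% in metastatic AS1 and AS2. In CR tumors the shares were 0.910% and 0.744% in primary CR1 and CR2 and 1.22% and 1.12% in metastatic CR1 and CR2, so the phenotypes did not overlap. As a share of all counts they did, since the members took 0.370% in primary CR2 and 0.447% and 0.379% in metastatic AS1 and AS2. Without Npm1 and Ncl, which dominate the sum, the shares were 0.317% to 0.375% in AS tumors and 0.348% to 0.506% in CR tumors, and the ranges overlapped. A mean of log2 levels weights every member equally, and it was 11.33 and 11.28 in the primary AS tumors, 11.52 and 11.35 in the metastatic AS tumors, 11.80 and 11.36 in the primary CR tumors and 11.81 and 11.53 in the metastatic CR tumors. The CR1 tumors stood highest and primary CR2 fell among the AS tumors. Of the 40 members, 34 had their highest level in primary CR1 or metastatic CR1, and 16 had their lowest level in primary CR2 or metastatic CR2. Of 104 further ribosome biogenesis genes, described below, 38 were highest in primary CR1 and 37 in metastatic CR1. In that list 20 were lowest in primary CR2 and 23 in metastatic CR2. Shares over all genes were not computed, so these counts do not set the members apart.

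**Figure D1:**
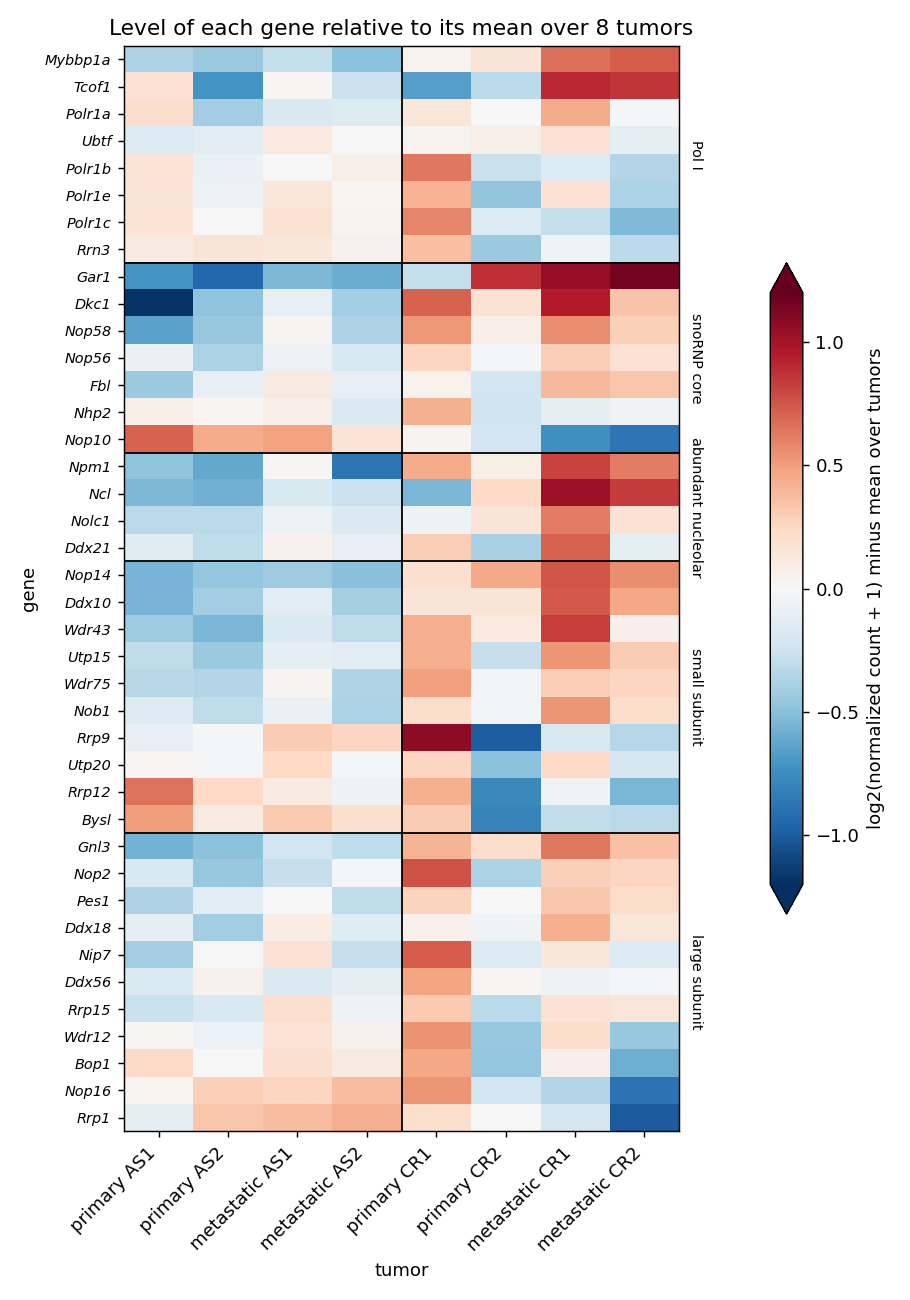
Level of each of the 40 genes (rows, grouped by role and ordered by the difference between phenotypes) in each of the 8 tumors (columns), as log2(normalized count + 1) minus the gene's mean over the tumors; red is above and blue below the mean. Of the 40 rows, 19 reach their highest value in metastatic CR1 and 15 in primary CR1.

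For castrate resistance, 4 CR tumors were set against 4 AS tumors in a quasi-likelihood fit of edgeR that also held tumor type, over 17104 genes. The metastases are called matched, so a primary tumor and a metastasis may come from the same mouse. No fit between phenotypes held a term for the mouse, so the 4 tumors of a phenotype may not be independent. At an adjusted p under 0.05, 10 of the 40 members were called, 9 higher and 1 lower in CR tumors, against 12.2% of all genes tested, 6.16% higher and 6.01% lower. The members called higher were Nop14, Gnl3, Gar1, Ddx10, Dkc1, Mybbp1a, Nop58, Npm1 and Wdr43, and the member called lower was Nop10. The median log2 fold change of the members was 0.29 (quartiles -0.05 and 0.57), compared with -0.01 over all genes tested, and 27 of 40 (67.5%) were above 0, against 49.2% of all genes. At an unadjusted p under 0.05 there were 17 members (42.5%), against 28.8% of all genes. All 4 CR tumors exceeded all 4 AS tumors for 13 members (32.5%) and were below them for 1 (2.50%), against 9.09% and 9.82% of all genes. The calls rest on few tumors: leaving out metastatic AS1 or metastatic AS2 left 1 member called, Nop14, while all genes called fell to 481 (2.76%) and 519 (3.01%). Without primary AS1 or primary AS2 there were 6 members called, with 881 and 695 of all genes called, without metastatic CR1 there were 4, with 745 genes (4.21%), and without primary CR1 there were 15, with 4133 genes (23.8%). Over the 8 fits that each left out a tumor, the log2 fold change ran from 0.75 to 0.86 for Gnl3, from 0.68 to 0.82 for Ddx10 and from 1.25 to 1.68 for Gar1.

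**Figure D2:**
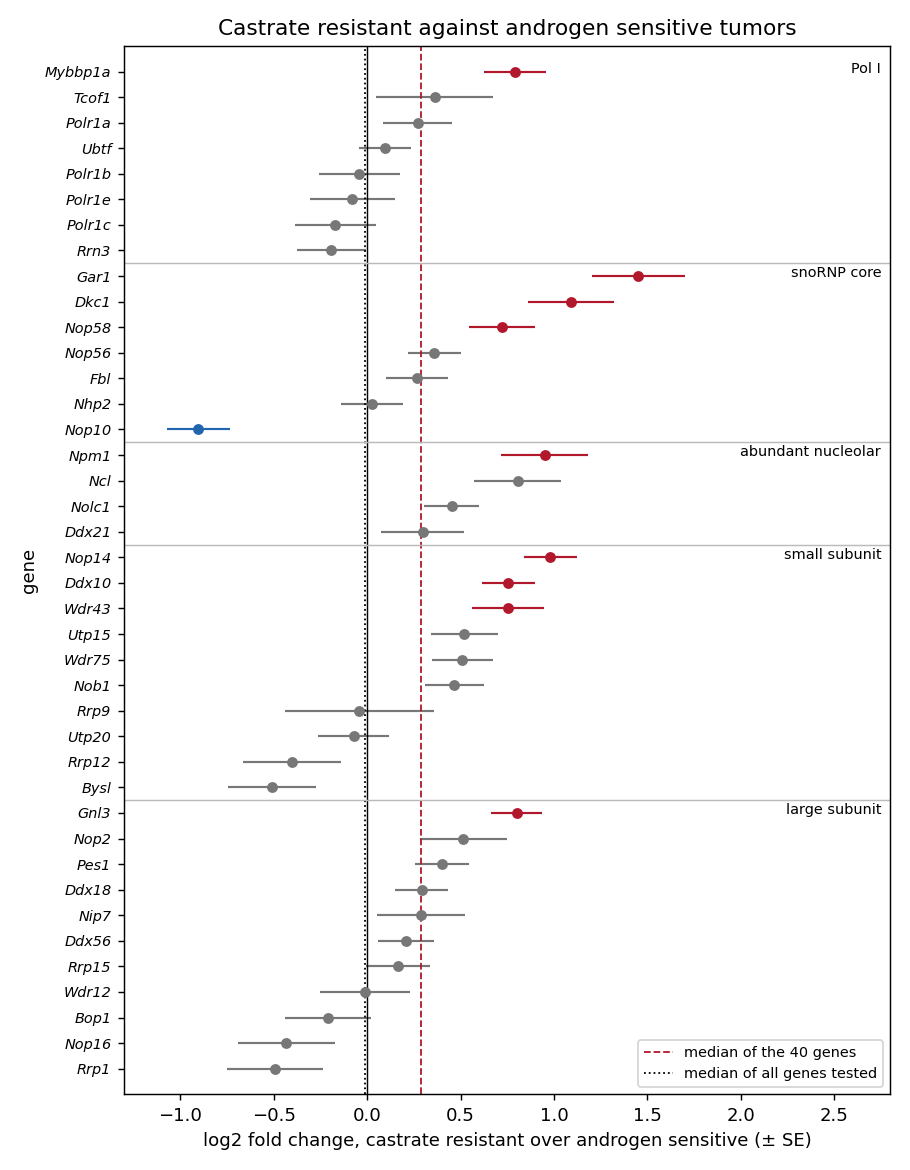
log2 fold change of each gene, castrate resistant over androgen sensitive tumors, with its standard error (bars), by role. Red points are the 9 genes called higher and the blue point is Nop10, called lower; the dashed line marks the median of the 40 genes (0.29) and the dotted line that of all genes tested (-0.01).

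The median difference of the members between phenotypes, on the log2 scale, was 0.36 within the tumors numbered 1 (34 of 40 higher) and 0.16 within those numbered 2 (24 of 40 higher). With a term for the library set, 10 members were again called, 9 of them higher, and 1717 of the 17104 genes tested were called. The share of all genes that were higher within a single library set was not computed.

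The clearest differences in the snoRNP core concerned the H/ACA particle, which guides pseudouridylation and whose 4 core proteins are encoded by Dkc1, Gar1, Nhp2 and Nop10. Gar1 (chr3:129824912-129831396, minus strand, mm10) had 605 and 519 normalized counts in primary AS1 and AS2, 687 and 659 in metastatic AS1 and AS2, 820 and 1831 in primary CR1 and CR2, and 2061 and 2218 in metastatic CR1 and CR2. Its level was thus separated between phenotypes, with primary CR1 close to the AS tumors. The log2 fold change was 1.45 (SE 0.25, adjusted p = 0.012). Dkc1 (chrX:75095854-75109777, plus strand) had 1769 and 2869 normalized counts in primary AS tumors, 3743 and 3013 in metastatic AS tumors, 6533 and 4509 in primary CR tumors and 7767 and 5099 in metastatic CR tumors. All CR tumors were above all AS tumors, and the log2 fold change was 1.09 (SE 0.23, adjusted p = 0.022).

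Nop10 (chr2:112261926-112263269, plus strand), the smallest protein of the same particle, went the opposite way. It had 8969 and 7455 normalized counts in primary AS tumors, 7684 and 6146 in metastatic AS tumors, 5615 and 4677 in primary CR tumors and 3303 and 3000 in metastatic CR tumors. Each CR tumor was below each AS tumor. The log2 fold change was -0.90 (SE 0.17, adjusted p = 0.015). For Nhp2, the remaining core protein, the log2 fold change was 0.03 (SE 0.17), so the 4 genes of 1 particle were spread over more than 2 log2 units.

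**Figure D3:**
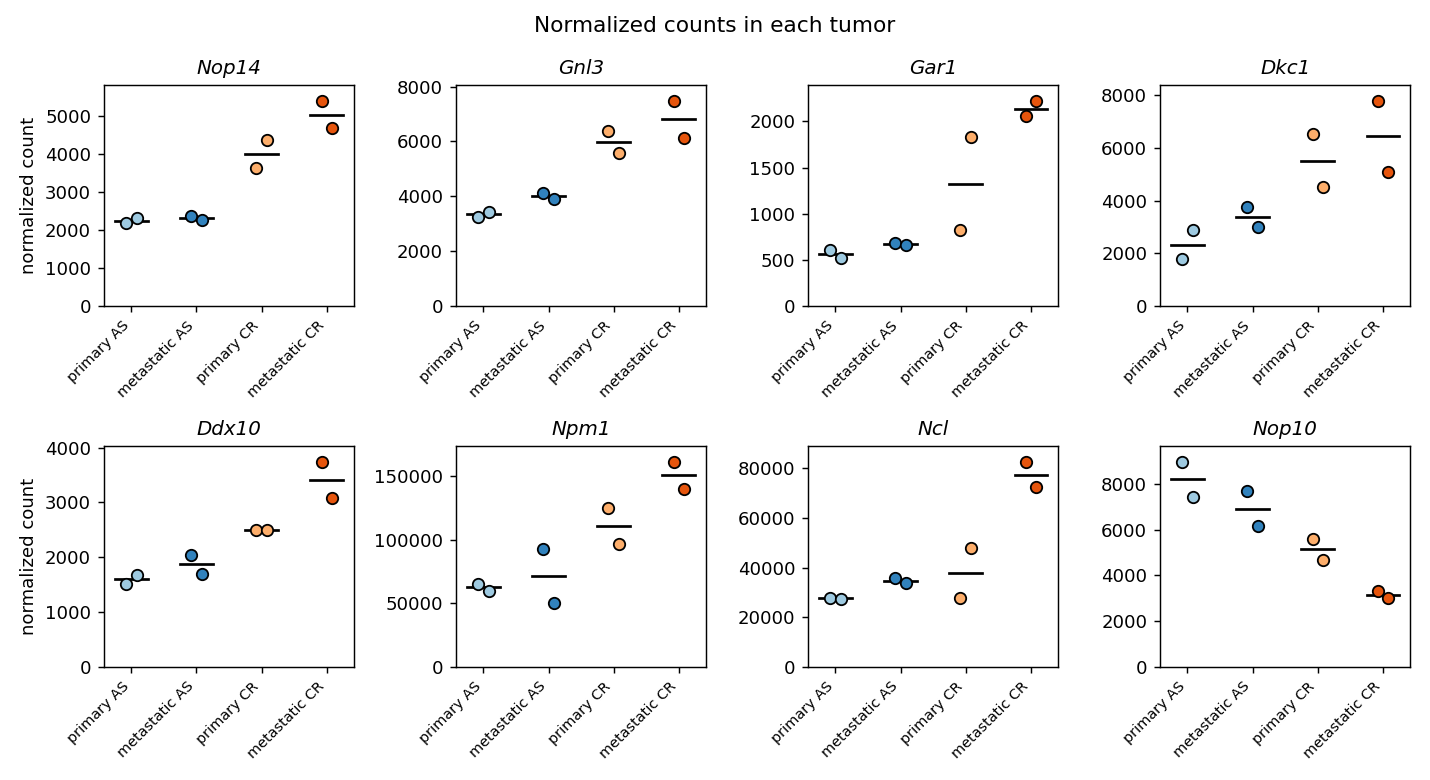
Normalized counts of 8 genes (panels) in each tumor (points), by group, with the group mean (bar, 2 tumors each); each vertical axis starts at 0. For all genes shown except Ncl and Nop10 every CR tumor lies above every AS tumor, for Nop10 every CR tumor lies below, and for Ncl primary CR1 lies among the AS tumors.

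In the C/D particle, which guides 2′-O-methylation, Nop58 was called and the members Nop56 and Fbl were not. The levels of Nop56 and Fbl are uncertain because of their shared sequence. Nop58 had 4777 and 5448 normalized counts in primary AS tumors, 7607 and 5741 in metastatic AS tumors, 10668 and 7813 in primary CR tumors and 10960 and 9075 in metastatic CR tumors. Metastatic AS1 was just below primary CR2. The log2 fold change was 0.72 (SE 0.18, adjusted p = 0.033), and it was 0.36 for Nop56 (adjusted p = 0.136) and 0.27 for the methyltransferase gene Fbl.

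Among the 4 abundant nucleolar proteins, all had a log2 fold change above 0, against 49.2% of all genes tested. Of the 4, 1 was called, Npm1, against 12.2% of all genes tested, 6.16% higher. Npm1 (chr11:33152287-33163206, minus strand) had 65404 and 59966 normalized counts in primary AS tumors, 92503 and 50298 in metastatic AS tumors, 125072 and 96452 in primary CR tumors and 161186 and 140231 in metastatic CR tumors. Primary CR2 stood just above metastatic AS1. The mean was 67043 ± 18087 (SD, n = 4) in AS and 130735 ± 27233 (SD, n = 4) in CR tumors, a log2 fold change of 0.95 (SE 0.23, adjusted p = 0.034). Ncl, which encodes nucleolin, had 27898 and 27182 normalized counts in primary AS tumors, 35573 and 33825 in metastatic AS tumors, 27753 and 47658 in primary CR tumors and 82501 and 72394 in metastatic CR tumors. Primary CR1 was at the level of the primary AS tumors while both CR metastases were above every other tumor. Its log2 fold change between phenotypes was 0.81 (SE 0.23) and missed the threshold (adjusted p = 0.055).

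Products of the small subunit group form and mature the particle that cuts the precursor around 18S ribosomal RNA. In this group, 3 of 10 members were called, all higher in CR tumors, against 12.2% of all genes tested, 6.16% higher. Nop14 (chr5:34638536-34660148, minus strand) had 2167 and 2305 normalized counts in primary AS tumors, 2363 and 2245 in metastatic AS tumors, 3632 and 4362 in primary CR tumors and 5373 and 4672 in metastatic CR tumors. The 4 AS tumors were almost equal, at 2270 ± 83.6 (SD, n = 4), and all CR tumors were higher, at 4510 ± 722 (SD, n = 4). The log2 fold change was 0.98 (SE 0.14, adjusted p = 0.0068), the smallest p of the members, and the gene was called under all 17 alternatives. Ddx10, an RNA helicase gene, had 1514 and 1670 normalized counts in primary AS tumors, 2043 and 1692 in metastatic AS tumors, 2492 and 2487 in primary CR tumors and 3735 and 3080 in metastatic CR tumors. The phenotypes did not overlap, and the log2 fold change was 0.76 (SE 0.14, adjusted p = 0.015).

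Wdr43, also known as Utp5, had 7242 and 6665 normalized counts in primary AS tumors, 8651 and 7891 in metastatic AS tumors, 13225 and 10594 in primary CR tumors and 17365 and 10155 in metastatic CR tumors. Its log2 fold change was 0.76 (SE 0.19, adjusted p = 0.037). Bysl, which acts late in small subunit assembly, had 1454 and 1100 normalized counts in primary AS tumors, 1269 and 1172 in metastatic AS tumors, 1266 and 585 in primary CR tumors and 836 and 817 in metastatic CR tumors. Primary CR1 lay within the AS range and the other 3 CR tumors were below it. The log2 fold change of -0.51 (SE 0.23) did not pass the test.

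Of the 11 large subunit factors, Gnl3 was called (9.09%, against 12.2% of all genes tested). Gnl3 (chr14:31012433-31019152, minus strand), which encodes nucleostemin, had 3250 and 3439 normalized counts in primary AS tumors, 4112 and 3910 in metastatic AS tumors, 6391 and 5582 in primary CR tumors and 7466 and 6139 in metastatic CR tumors. All CR tumors were higher, with a log2 fold change of 0.80 (SE 0.14, adjusted p = 0.011). The PeBoW complex, which is needed to process the precursor of the large subunit RNAs, was not called in any of its 3 genes, with log2 fold changes of 0.40 for Pes1, -0.21 for Bop1 and -0.01 for Wdr12. Rrp1, the most abundant member of the group, had 7445 and 10148 normalized counts in primary AS tumors, 10459 and 10935 in metastatic AS tumors, 9202 and 8087 in primary CR tumors and 6966 and 4038 in metastatic CR tumors. Metastatic CR2 was lowest, and the log2 fold change of -0.49 (SE 0.26) did not pass the test.

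Of the 8 genes of RNA polymerase I transcription, Mybbp1a was called (12.5%, against 12.2% of all genes tested). The median log2 fold change of the group was 0.03. Mybbp1a (chr11:72441355-72451768, plus strand), a nucleolar Myb-binding protein, had 8872 and 8415 normalized counts in primary AS tumors, 9361 and 8158 in metastatic AS tumors, 11776 and 12752 in primary CR tumors and 18101 and 18925 in metastatic CR tumors. The phenotypes were separate and the CR metastases were highest, with a log2 fold change of 0.79 (SE 0.17, adjusted p = 0.022). Of the polymerase subunit genes, Polr1a had a log2 fold change of 0.27, beside the median of 0.29 for the members. It was slightly below 0 for Polr1b (-0.04), Polr1c (-0.17), Polr1e (-0.07) and the initiation factor gene Rrn3 (-0.19). None of these genes was called. Part of the exons of 13 members, Mybbp1a, Gnl3, Dkc1, Nop14, Wdr43 and Bysl among them, is overlapped by an antisense gene. The libraries were stranded, but whether counting used the strand is not given in the sources used here.

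A list of 104 further ribosome biogenesis genes was grouped by the same roles. In CR against AS tumors 18 of them were called higher (17.3%) and 0 lower, against 6.16% and 6.01% of all genes tested, with 3 at an unadjusted p under 0.05 on the lower side. Their log2 fold change was above 0 for 78 and below it for 26, with a median of 0.20, against -0.01 over all genes. The genes with the smallest p were Rpf1 (log2 fold change 0.91, adjusted p = 0.0087), Sdad1 (0.76, adjusted p = 0.013) and Nufip1 (0.86, adjusted p = 0.013). On the lower side they were Pih1d1 (-1.03, adjusted p = 0.076), Urb1 (-0.65, adjusted p = 0.086) and Imp3 (-0.56, adjusted p = 0.090). By role, the calls were 2 of 8 genes of RNA polymerase I transcription, 2 of 9 of snoRNP assembly, 6 of 39 of the small subunit and 8 of 48 of the large subunit.

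GC content moved with the difference between phenotypes over the whole transcriptome. Among protein-coding genes with a mean above 200 normalized counts, the median log2 fold change fell from 0.14 in the lowest of 4 equal bins of GC content to 0.00, -0.12 and -0.26 in the next ones. The members in the same bins had medians of 0.76, 0.29, 0.09 and 0.21, each above that of its bin. After a smooth function of GC content and length was removed from each tumor, an alternative chosen after seeing the data, 16 members were called, 15 of them higher, against 13.6% of protein-coding genes tested. Of the 10 members called before, 9 were among them, and Nop58 was not (adjusted p = 0.105).

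Mouse Myc was low in all tumors. It had 253 and 239 normalized counts in primary AS tumors, 237 and 240 in metastatic AS tumors, 309 and 414 in primary CR tumors and 408 and 373 in metastatic CR tumors. All CR tumors were above all AS tumors, with a log2 fold change of 0.63 that missed the threshold (SE 0.19, adjusted p = 0.060).

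The 4 metastatic and 4 primary tumors were compared in a fit of the same kind with tumor type alone. No member was called, and 0 of 17104 genes were called (0%), with 459 genes at an unadjusted p under 0.05 (2.68%). DESeq2 and limma-voom also called 0 genes. Of the members, 1 (2.50%) had an unadjusted p under 0.05, Tcof1, on the higher side, where 1.56% of all genes had one. With phenotype also in the fit, 0 genes and 0 members were called, and 1146 genes and 4 members had an unadjusted p under 0.05. The median log2 fold change of the members was 0.11, compared with -0.03 over all genes, and 25 of 40 (62.5%) were above 0, against 46.2% of all genes. Within the library sets the median difference of the members was 0.12 in the tumors numbered 1 (24 of 40 higher) and 0.12 in those numbered 2 (30 of 40 higher). No member had all metastatic tumors above or below all primary tumors, against 0.854% and 0.848% of all genes. The group medians were 0.32 for the abundant nucleolar proteins, 0.22 for the snoRNP core, 0.14 for the small subunit factors, 0.00 for RNA polymerase I transcription and -0.03 for the large subunit factors. Among the 104 further genes 0 were called and 0 had an unadjusted p under 0.05.

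Tcof1 encodes treacle, a partner of RNA polymerase I. It had 631 and 341 normalized counts in primary AS tumors, 568 and 468 in metastatic AS tumors, 354 and 447 in primary CR tumors and 1048 and 1018 in metastatic CR tumors. The CR metastases stood apart, while the AS metastases lay within the range of the AS primary tumors. The log2 fold change over all tumors was 0.80 (SE 0.33, unadjusted p = 0.035, adjusted p = 0.997 by edgeR). Ncl had the next smallest p, with a log2 fold change of 0.78 (SE 0.35, adjusted p = 0.997). On the lower side, Polr1c had 2168 and 1939 normalized counts in primary AS tumors, 2198 and 1980 in metastatic AS tumors, 2908 and 1720 in primary CR tumors and 1584 and 1339 in metastatic CR tumors. Its highest value was in primary CR1, and its log2 fold change of -0.30 (SE 0.22) did not pass the test (adjusted p = 0.997).

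Within AS tumors, the log2 fold change of metastatic over primary was above 0 for 32 of 40 members, with a median of 0.15 and a range from -0.44 for Rrp12 to 0.54 for Dkc1. Among all 18889 genes 48.5% were above 0. At an unadjusted p under 0.05 there were 0 members, against 2.45% of genes (1.55% higher and 0.895% lower). Within CR tumors, 22 of 40 were above 0, and 6 members (15.0%) had an unadjusted p under 0.05, against 7.74% of genes (2.37% higher and 5.37% lower), of which 47.7% were above 0. On the higher side these were Tcof1 (1.35), Ncl (1.02) and Mybbp1a (0.57), and on the lower side Nop10 (-0.74), Nop16 (-0.82) and Polr1c (-0.70), all with an adjusted p of 0.625. No gene was called within either phenotype by this test, and DESeq2 called 11 genes in AS and 16 in CR tumors. Each of these contrasts rests on 2 tumors against 2.

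**Figure D4:**
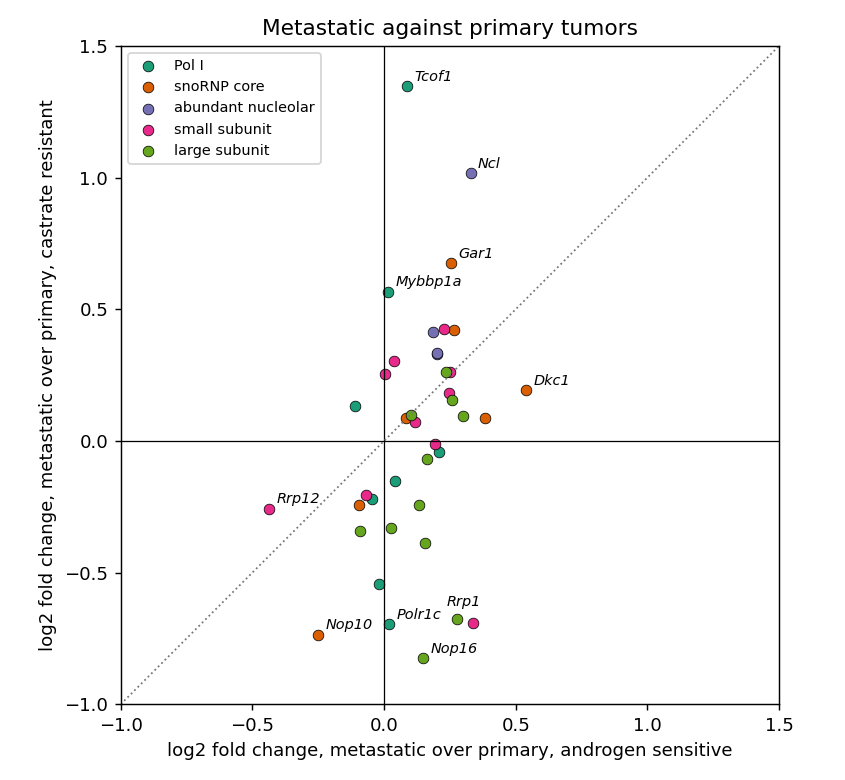
log2 fold change of metastatic over primary tumors for each of the 40 genes, in androgen sensitive tumors (horizontal) and castrate resistant tumors (vertical), coloured by role; the dotted line marks equal change and 2 tumors entered each arm. The points span -0.44 to 0.54 horizontally and -0.82 to 1.35 vertically, with Tcof1 and Ncl at the top and Nop16 at the bottom; none was called.

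The difference of these contrasts between phenotypes was tested as an interaction. No member and no gene was called, with 517 genes (2.74%, made up of 1.2% above 0 and 1.54% below) and 1 member, Tcof1, at an unadjusted p under 0.05. It was above 0 for 16 of 40 members and for 46.5% of genes. The interaction was 1.26 for Tcof1 (SE 0.47, unadjusted p = 0.027, adjusted p = 0.964 by edgeR), -0.95 for Rrp1 (SE 0.44) and -0.97 for Nop16 (SE 0.45). Nop16, a large subunit factor, had 1102 and 1324 normalized counts in primary AS tumors, 1296 and 1402 in metastatic AS tumors, 1562 and 926 in primary CR tumors and 850 and 586 in metastatic CR tumors. The values ran from metastatic CR2 as the lowest to primary CR1 as the highest, so the CR tumors alone spanned the whole range.

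Cell cycle markers ranked the tumors differently from the members. The mean log2 level of 14 such markers was 8.96 and 8.62 in primary AS tumors, 10.16 and 10.08 in metastatic AS tumors, 10.42 and 8.50 in primary CR tumors and 9.66 and 10.47 in metastatic CR tumors. Primary CR1, which had one of the 2 highest mean levels of the members, was also high in these markers, whereas metastatic CR1, the other, was lower in them than both AS metastases. Between phenotypes, 13 of the 14 markers had a log2 fold change above 0 in CR tumors, with a median of 0.52, beside 0.29 for the members. Within AS tumors the markers had a median log2 fold change of 1.43 in metastases, beside 0.15 for the members. Mki67 ran from 1498 to 3887 normalized counts in primary and from 4717 to 8506 in metastatic tumors. It was the only marker of the 14 with all metastatic above all primary tumors, as were 0.854% of all genes tested. Top2a had 2704 and 1811 in primary AS, 8091 and 5844 in metastatic AS, 8184 and 1520 in primary CR and 4861 and 8340 in metastatic CR tumors. None of the 14 was called in either comparison, and the part of the cell cycle in the members' levels was not tested.

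**Figure D5:**
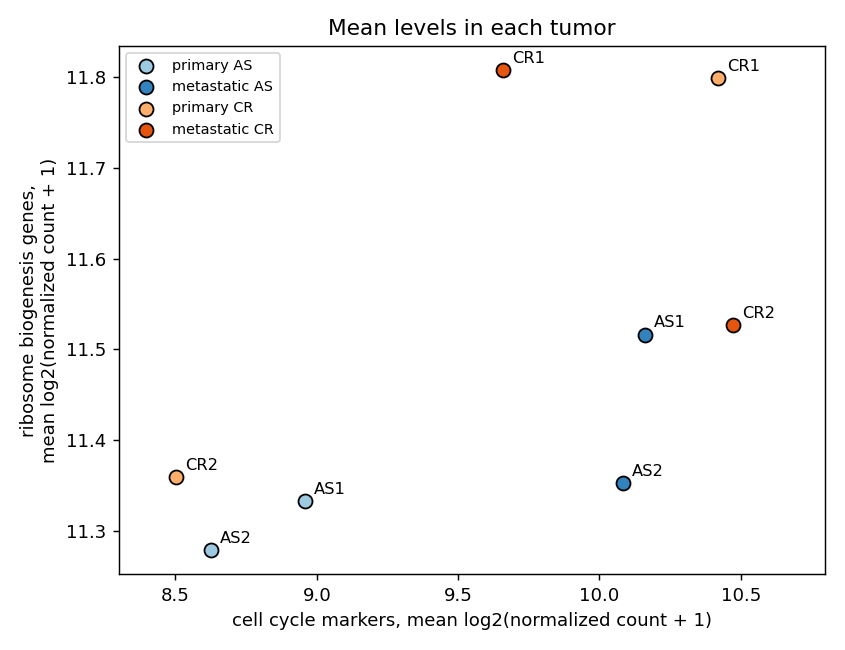
Mean log2(normalized count + 1) of the 40 ribosome biogenesis genes (vertical) against that of 14 cell cycle markers (horizontal), 1 point per tumor, coloured by group and labelled by tumor. Primary CR1 and metastatic CR1 lie together at the top (11.80 and 11.81) although their cell cycle levels are 10.42 and 9.66.

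Other cells in the tumors were assessed from marker lists. The mean log2 level of 11 leukocyte markers was 6.39 to 7.20 in AS and 5.74 to 6.47 in CR tumors, that of 8 fibroblast markers 8.03 to 8.78 and 8.06 to 9.14, and that of 6 endothelial markers 8.89 to 9.48 and 8.57 to 9.42. These ranges overlapped between the phenotypes. All 7 leukocyte markers that passed the filter had a log2 fold change below 0 in CR tumors, with a median of -0.75, and none was called. Of 5 muscle markers tested, 4 were below 0, with a median of -0.82, and Tnnt3 was called lower (-2.13, adjusted p = 0.015). The T and B cell markers Cd3e, Cd3d, Cd79a and Ms4a1 and the lung markers Sftpc and Sftpb did not exceed 10 normalized counts. Of 6 hepatocyte markers, 4 were tested, with log2 fold changes from -3.98 to 1.38, and 2, Fgb and Ttr, were called lower. Fgb was at 220109 to 596878 normalized counts in AS and 5209 to 116711 in CR tumors, while Apoa1 and Serpina1a did not exceed 14. In metastatic against primary tumors no marker was called. At an unadjusted p under 0.05 there were 2 of the 4 hepatocyte markers, 1 higher and 1 lower, against 2.68% of all genes tested. The fibroblast, endothelial and muscle lists each had 1 such marker. The part of these differences in the members' levels was not tested.

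In all, 6 members host snoRNA genes within their bounds, 19 together, and 14 of these stayed under 100 counts in every tumor. Their counts followed the library sets: 15 of the 19 had no count in each tumor numbered 2. In primary AS1, metastatic AS1, primary CR1 and metastatic CR1, 8, 9, 7 and 4 had none. Snora75, inside Ncl, had 55 normalized counts in primary CR1 and 32 to 56 in AS tumors, but 958, 1504 and 365 in primary CR2, metastatic CR1 and metastatic CR2 (log2 fold change between phenotypes 3.97, adjusted p = 0.023). Its host Ncl was likewise at the AS level in primary CR1. Gm24451, inside Nop56, had 73 in primary CR1, 50 to 124 in AS tumors and 791, 1530 and 378 in the other CR tumors (log2 fold change 2.99, adjusted p = 0.044), although Nop56 itself ranged only from 5282 to 8427. Of the 19 genes, 10 overlap an annotated exon of the host, so their reads and those of the host cannot always be told apart.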

How the data were processed

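To make the files, the authors removed ribosomal RNA, made stranded libraries, sequenced paired reads of 101 bases and kept uniquely mapped ones. The paper names Bowtie on mm10, and the submitters' processing notes name CASAVA 1.8.2, TopHat2 2.0 and GRCm38. The deposited values are raw counts per gene, without normalization; the counting tool and annotation release are not given in the sources used here. Gene coordinates, types, exon lengths and GC content came from GENCODE M21, which held 36343 of the 38115 identifiers.

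Counts were analysed with edgeR 4.0.16 in R 4.3.3: filterByExpr grouped by the factor compared (17104 genes, or 18889 with the 4 groups), TMM factors, the quasi-likelihood test and Benjamini-Hochberg adjustment over all genes tested, at 0.05. All 40 members passed the filter. The SE is the log2 fold change divided by the square root of F. A normalized count is the count over the TMM-corrected library size, times the mean of that size over tumors. Mean log2 levels used a pseudocount of 1. Nothing in the labels says that the 2 tumors of a group are from separate mice. A matched metastasis may also share a mouse with its primary tumor, so p-values measure the spread between these tumors. Depth was 20905806 to 91886163 counts per tumor; the number of tumors also limits the precision.

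Members and gene lists were chosen with earlier results of these data known. Values in every tumor are given for the most abundant member of each role, for members with the smallest p in each direction of both comparisons (up to 5 at an unadjusted p under 0.05, otherwise 2), for the 3 with the smallest interaction p, and for Myc and Top2a. Of the further ribosome biogenesis genes, the 3 with the smallest p in each direction are named. Other genes were named after their values were seen. Some marker genes are not reported here. Alternatives were RLE factors, library size from protein-coding genes, no filter, CPM above 1 in at least 4 tumors, DESeq2 1.42.0, limma-voom 3.58.1, other covariates, each of 4 ways to pair the metastases within a phenotype, and each tumor left out. A GC and length offset and a term for the library set were added after seeing the data. Shared sequence was searched with BLAST 2.17.0 at 98% identity over at least 101 bases. The fits were tested on simulated data. Figures were drawn with matplotlib 3.10.9.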

Additional observations from a re-analysis of the deposited data

Results flagged for a closer look

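Of 76 groups of 4 tumors examined for a tumor far from the others, 2 held one by Dixon's ratio. Chance gives about 1 in 20, so 2 of 76 is not more than chance would give. The groups also share tumors, since each tumor enters by tumor type and by phenotype. Ncl in primary CR2, at 47658 normalized counts, was far above the other 3 primary tumors, which lay between 27182 and 27898 (ratio 0.965). The mean log2 level of the 40 members in primary CR1, at 11.80, was far above the other primary tumors, at 11.28 to 11.36 (ratio 0.845). Primary CR1 also had the lowest share of ribosomal RNA genes and Lars2, 2.71%, and primary CR2 the highest, 32.9%; their part in these levels was not tested.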

How the results depend on the processing

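Under the 17 alternatives for CR against AS tumors, the median log2 fold change of the members stayed between 0.20 and 0.41, the highest with the GC and length offset (0.41), and leaving out a tumor gave 0.22 to 0.38. DESeq2 called 3544 genes and 16 members, the GC and length offset 16 members, and leaving out 1 tumor gave 481 to 4133 genes and 1 to 15 members, with fewer tumors in the fit. Without the low-count filter the median of all genes moved from -0.01 to 0.11, and that of the members was 0.20. For metastatic against primary tumors, 0 genes and 0 members were called under all 21 alternatives, the 4 pairings included, and the median of the members was 0.02 to 0.29. Within AS tumors, 179 genes were called without the filter and 11 by DESeq2, and leaving out any tumor gave 0. Within CR tumors the counts were 375 without the filter, 16 by DESeq2 and 0 to 235 with a tumor left out, the latter without primary CR2. For the interaction they were 217, 2 and 0 to 82, again without primary CR2. The cause was not tested.

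For named members, 5 values changed sign, none of them called. In metastatic against primary tumors, leaving out a tumor gave -0.29 to 0.049 for Bysl (above 0 without primary AS1), -0.29 to 0.12 for Rrp1 (above 0 without metastatic CR2, and 0.0046 with the GC and length offset) and -0.068 to 0.43 for Wdr43 (below 0 without metastatic CR1). The fifth was Polr1c between phenotypes with that offset (0.058). Of 653 values of named members under an alternative, 603 kept their direction and side of the threshold, 38 fell below it and 7 rose above it. Of these 45, 39 came from leaving out a tumor. Only the 10 members called between phenotypes could fall below the threshold, and all 38 losses were theirs, so the 603 do not measure how stable the calls are. Of 17 alternatives, Nop58 was called under 9, Npm1 and Wdr43 under 11, Mybbp1a under 12 and Nop14 under 17. The replicate numbers are names given in accession order and pair no tumors. They coincide with the library sets, and with a term for the set 1717 genes and 10 members were called between phenotypes.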
